A study of Mus musculus with 6 samples.

Results

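The genes described here are the receptors, co-receptors and latent binding proteins of TGF-beta and BMP signalling in mouse aorta, chosen by symbol as Tgfbr1, Tgfbr2, Tgfbr3, Eng, Acvrl1, Bmpr2 and Ltbp1 to Ltbp4. All 10 were found among the 35275 genes measured. RNA from whole aorta was sequenced in 6 libraries, 3 labelled EC-Jag1KO, in which endothelial cells lack the Notch ligand Jagged1, and 3 labelled wild-type. The labels give neither the Cre driver nor strain, age or sex, and nothing in them states whether each library is 1 animal. The tests therefore measure only how these libraries vary, which may be in part technical. Levels are FPKM, fragments per kilobase of gene and scaled to all fragments in genes, and differences are EC-Jag1KO minus wild-type in log2(FPKM + 1).

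TGF-beta and BMP ligands bind a pair of receptor kinases, in which a type II receptor phosphorylates a type I receptor, which then phosphorylates SMAD proteins. Co-receptors without kinase activity present the ligand, and latent TGF-beta binding proteins (LTBPs) hold inactive TGF-beta in the extracellular matrix. In arteries the pathway is known for keeping smooth muscle contractile and the elastic wall intact, and its BMP9 branch, through the type I receptor ALK1 (Acvrl1) and endoglin (Eng), is known for endothelial quiescence.

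The upstream sequences of 3 of the genes are shown, since Eng and Tgfbr1 were those whose libraries separated by genotype and Ltbp3 carries the core motif of RBPJ, the DNA-binding partner of Notch. Each is the 250 bases before a RefSeq transcription start in GRCm38.p6, plus strand, written 5′ to 3′, at chr2:32646345-32646594 for Eng, chr4:47352972-47353221 for Tgfbr1 and chr19:5740650-5740899 for Ltbp3. Capitals mark TGGGAA (RBPJ core), CAGAC (SMAD box), GGCGCC (a BMP-SMAD box) and GGGCGG (SP1 box), searched on both strands.

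Eng: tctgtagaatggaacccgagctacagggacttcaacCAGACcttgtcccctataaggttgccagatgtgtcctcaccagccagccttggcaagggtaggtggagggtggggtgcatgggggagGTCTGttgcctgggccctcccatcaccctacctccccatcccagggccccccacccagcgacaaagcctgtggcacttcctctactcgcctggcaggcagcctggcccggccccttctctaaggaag

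Tgfbr1: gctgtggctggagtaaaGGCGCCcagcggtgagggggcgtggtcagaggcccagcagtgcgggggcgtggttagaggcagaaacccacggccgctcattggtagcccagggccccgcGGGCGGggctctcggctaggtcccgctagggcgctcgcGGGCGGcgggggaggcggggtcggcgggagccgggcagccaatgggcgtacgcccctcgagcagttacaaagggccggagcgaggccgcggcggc

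Ltbp3: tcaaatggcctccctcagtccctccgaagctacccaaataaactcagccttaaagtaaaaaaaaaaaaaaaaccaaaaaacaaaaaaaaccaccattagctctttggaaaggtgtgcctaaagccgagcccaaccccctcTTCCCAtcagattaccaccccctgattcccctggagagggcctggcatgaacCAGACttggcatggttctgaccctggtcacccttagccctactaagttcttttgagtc

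The Eng window held 2 SMAD boxes, the Tgfbr1 window shown 1 BMP-SMAD box and 2 SP1 boxes, and the Ltbp3 window 1 RBPJ core and 1 SMAD box. Another Tgfbr1 window, not shown, held 1 SMAD box and no other of these motifs. RefSeq windows were matched for 8 of the 10 genes, 12 windows in all, since some genes have several starts. The RBPJ core was in 2 of these 12 windows, those of Ltbp3 and Bmpr2, and in 21.6% of all 32851 windows of the same length. The SMAD box was in 7 of the 12, from 6 genes, and in 42.2% of all windows. The SP1 box was in 6, from 4 genes, and in 32.7%, and the BMP-SMAD box in 4, from 3 genes, and in 9.59%. Ltbp4 gave 3 of the 6 SP1 windows and 2 of the 4 BMP-SMAD windows, and those 2 overlap almost wholly, so they are not separate observations. A match describes letters in the window and is not a binding site.

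The libraries held 19889910 to 25914325 reads in genes in EC-Jag1KO and 23630029 to 25705412 in wild-type, and each of the 10 genes had at least 1920 reads in every library. Jag1, the targeted gene, stood at 13.5, 9.42 and 19.6 FPKM in EC-Jag1KO and at 9.86, 10.6 and 16.9 FPKM in wild-type libraries, which overlap. Other cells of the wall also express Jag1, and gene-level values cannot show a deleted exon, so these levels are no check of the knockout. Xist was at 40.7 FPKM in EC-Jag1KO replicate 3 and 26.9 FPKM in wild-type replicate 3 and below 1 FPKM in the others, so these 2 libraries are female and the other 4 male. Markers of smooth muscle (Acta2 at 6173 FPKM or more), endothelium (Pecam1 at 172 FPKM or more) and fibroblasts (Dcn at 561 FPKM or more) were present in all 6 libraries.

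**Figure D1:**
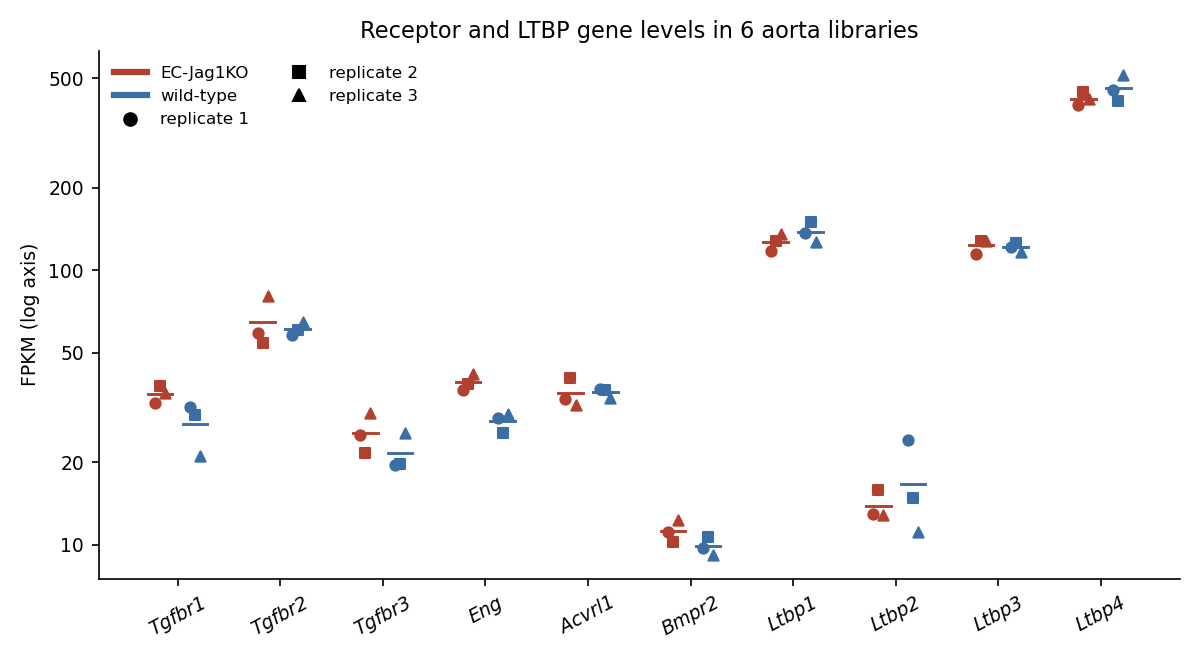
FPKM (log axis) of the 10 genes in each library, EC-Jag1KO in red and wild-type in blue, with a marker shape for each replicate number and a line at each group mean. Ltbp4 lies above all other genes in every library, and the groups separate in Eng and Tgfbr1.

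Per length, Ltbp4, Ltbp1 and Ltbp3 were the most abundant transcripts of the set, and Ltbp2 and Bmpr2 the least. Ltbp4 averaged 421 ± 22 FPKM in EC-Jag1KO and 461 ± 51 FPKM in wild-type aorta (SD, n = 3 each), and its range did not meet that of any other gene. Ltbp1 and Ltbp3 came next and overlapped, with Ltbp1 above Ltbp3 in 5 of 6 libraries. Tgfbr2 ranked 4 in all 6 libraries, above and apart from Acvrl1, Eng and Tgfbr1, whose ranges overlapped. Acvrl1 was above Eng in 4 of 6 libraries, namely EC-Jag1KO replicate 2 and all wild-type libraries. Tgfbr3 and Ltbp2 followed, each overlapping the range of the gene above it, and Bmpr2, at 9.21 to 12.3 FPKM, was lowest in every library.

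Between genotypes, Eng had the smallest unadjusted p of the set in limma, and no gene of the set passed the test adjusted over all genes. The limma fit covered 12165 genes averaging 1 FPKM or more and called 0 of them at an adjusted p of 0.05 (0%), so 0 of the 10 is the same share as in the background. Before adjustment 938 genes (7.71%) had a p under 0.05, 4.25% of all genes being higher in EC-Jag1KO, and Eng was the single gene of this set among them. By voom on recovered reads 0 genes passed as well, with 1008 at an unadjusted p under 0.05, among them 2 of this set, Eng and Tgfbr1. With sex as a term 3 of the set were under 0.05 before adjustment, beside 1029 of all 12165 genes. With array weights it was 5 of the set, beside 4215 of all 12165 genes. The groups did not overlap in 2 of the 10 genes, Eng and Tgfbr1, both higher in EC-Jag1KO, where 6.84% of all tested genes were higher without overlap, 6.73% lower, and 13.6% separated in either direction. The median difference of the 10 was 0.04, beside -0.00022 over all tested genes, with 6 higher and 4 lower.

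**Figure D2:**
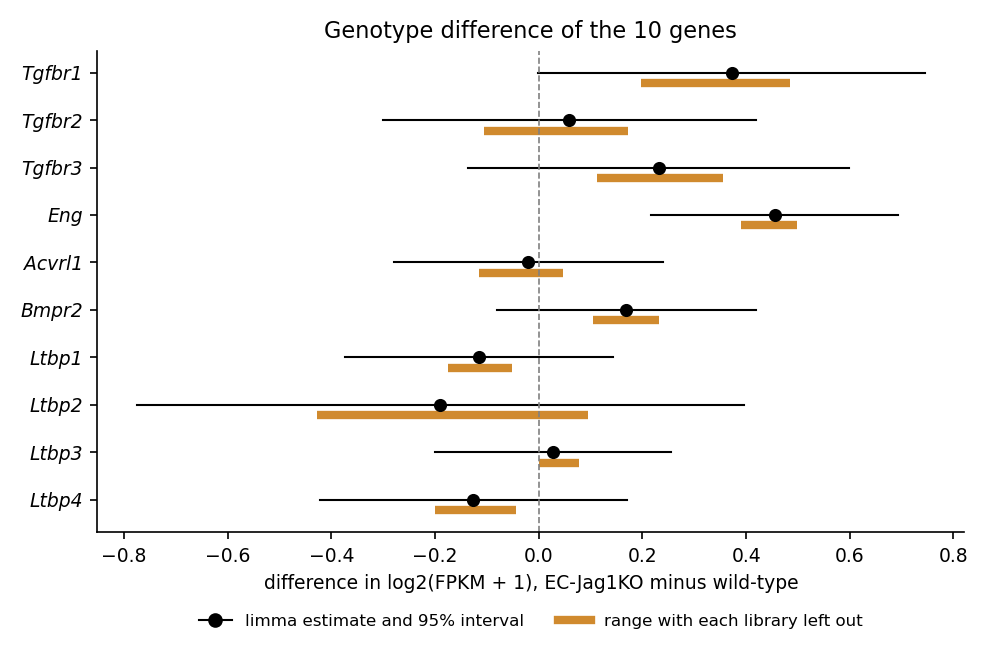
Difference in log2(FPKM + 1), EC-Jag1KO minus wild-type, for each gene, with limma's 95% interval in black and the range with each library left out in orange. The interval excludes 0 for Eng alone (0.22 to 0.69), and that of Tgfbr1 runs from -0.00071 to 0.75.

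Among the co-receptors, Eng encodes endoglin, an endothelial glycoprotein that binds BMP9 and assists ALK1. It lies on the plus strand of chromosome 2, 32646595 to 32682669 in mm10. Eng measured 36.7, 38.5 and 41.8 FPKM in EC-Jag1KO libraries, against 29.0, 25.6 and 30.0 FPKM in wild-type libraries. All EC-Jag1KO libraries were above all wild-type libraries, the female pair included. The difference was 0.45 with an SE of 0.10 (means 39.0 ± 2.6 and 28.2 ± 2.3 FPKM, SD, n = 3 each), and limma's p was 0.0026 unadjusted and 0.402 adjusted over all genes. With each library left out in turn it was 0.39 to 0.50. Array weights gave an adjusted p of 0.018, in a fit that weighted EC-Jag1KO replicate 1 at 14.7 and the other libraries at 0.259 to 1.61, and that called 1647 genes in all.

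Eng overlaps 3 other genes in the table's coordinates, and the strand setting of the counting is not given in the sources used here. Ak1, on the same strand, shares 211 bases at the start of Eng, and stood at 20.7 ± 4.4 FPKM in EC-Jag1KO and 20.6 ± 2.8 FPKM in wild-type. Fpgs, on the opposite strand, shares 61 bases at its end, and stood at 8.67 ± 0.88 and 9.93 ± 0.51 FPKM. The antisense gene RP23-17P12.14 had at most 9 reads in a library, where Eng had 2301 to 3868. None of these 3 neighbours was higher in EC-Jag1KO by more than its replicate SD. Their levels do not show how reads in the shared bases were assigned, and the part of the overlaps in the Eng difference was not tested.

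Tgfbr3 encodes betaglycan, the co-receptor that presents TGF-beta, TGF-beta2 above all, to its type II receptor. It lies on the minus strand of chromosome 5, 107106570 to 107289629. Tgfbr3 measured 25.0, 21.6 and 30.1 FPKM in EC-Jag1KO libraries, against 19.5, 19.7 and 25.6 FPKM in wild-type libraries. The female library was the highest of its group in both genotypes, and the groups overlapped. The difference was 0.23 with an interval of -0.14 to 0.60 and an adjusted p of 0.779 in limma.

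The type I receptors differed from each other in their values. Tgfbr1, the type I TGF-beta receptor ALK5, lies on the plus strand of chromosome 4, 47353222 to 47414931. It measured 32.9, 37.8 and 35.6 FPKM in EC-Jag1KO libraries, against 31.8, 29.6 and 21.1 FPKM in wild-type libraries. The groups did not overlap, but EC-Jag1KO replicate 1 and wild-type replicate 1 lay close together, and wild-type replicate 3 lay far below its group. The difference was 0.37 with an SE of 0.16 (adjusted p = 0.645 in limma). It was 0.20 without wild-type replicate 3. Among the 4 male libraries alone it was 0.19.

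Acvrl1, the endothelial type I receptor ALK1 for BMP9 and BMP10, lies on the plus strand of chromosome 15, 101128522 to 101145336. It measured 34.0, 40.6 and 32.2 FPKM in EC-Jag1KO libraries, against 36.9, 36.7 and 34.2 FPKM in wild-type libraries. The wild-type values all fell within the EC-Jag1KO range. The difference was -0.02, with an interval of -0.28 to 0.24 (adjusted p = 0.981 in limma). The antisense gene Gm16031 overlaps Acvrl1 and had 15 to 40 reads a library.

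The type II receptors showed no separation of the groups. Tgfbr2, the type II TGF-beta receptor, lies on the minus strand of chromosome 9, 116087698 to 116175363. It measured 59.1, 54.4 and 80.3 FPKM in EC-Jag1KO libraries, against 58.1, 60.4 and 64.9 FPKM in wild-type libraries. EC-Jag1KO replicate 3, a female library, stood above all others, and the female library was again the highest of each group. The difference was 0.06 with an interval of -0.30 to 0.42, and it was -0.11 without EC-Jag1KO replicate 3.

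Bmpr2, the type II BMP receptor whose loss causes pulmonary arterial hypertension in people, lies on the plus strand of chromosome 1, 59763400 to 59879014. It measured 11.2, 10.2 and 12.3 FPKM in EC-Jag1KO libraries, against 9.72, 10.7 and 9.21 FPKM in wild-type libraries. The groups overlapped through EC-Jag1KO replicate 2 and wild-type replicate 2. The difference was 0.17 with an interval of -0.08 to 0.42 (adjusted p = 0.761 in limma), and 0.06 among the male libraries.

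Eng and Acvrl1 act in the same receptor complex, and their ratio within a library does not depend on scaling between libraries. The Eng minus Acvrl1 difference in log2(FPKM + 1) was 0.11, -0.07 and 0.36 in EC-Jag1KO libraries, against -0.34, -0.50 and -0.19 in wild-type libraries. All EC-Jag1KO libraries were above all wild-type libraries. The means were 0.13 ± 0.22 and -0.34 ± 0.16 (SD, n = 3 each), and the exact two-sided permutation test gave p = 0.1, the smallest that 3 against 3 allows. This pair was chosen after the values had been seen, as was Tgfbr1 minus Tgfbr2, which differed by 0.31 with overlapping ranges (exact permutation p = 0.4, n = 3 each) and by 0.095 when wild-type replicate 3 was left out.

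In whole tissue, more cells that express Eng, endothelial or other, and more Eng RNA per cell cannot be told apart. Relative to the endothelial markers Pecam1 and Cdh5, Eng stood at -1.16, -0.72 and -0.98 in EC-Jag1KO and at -0.95, -1.13 and -1.36 in wild-type libraries, on the log2 scale. These ranges overlapped (difference 0.19, exact permutation p = 0.5, n = 3 each). Against the mean of all 12 endothelial markers the difference was 0.33 (exact permutation p = 0.3). Against Pecam1 and Cdh5, leaving out EC-Jag1KO replicate 2 gave 0.07, leaving out wild-type replicate 3 gave 0.08, and leaving out replicate 1 of either group gave 0.29. Cdh5 itself was at 27.9 ± 4.4 FPKM in EC-Jag1KO and 20.6 ± 4.9 FPKM in wild-type, and Pecam1 at 210 ± 28 and 195 ± 31 FPKM. Of the 12 endothelial markers 7 were higher and 5 lower, none separated by genotype, and their summed FPKM was 389 to 483 in EC-Jag1KO and 347 to 516 in wild-type. The part of these markers in the Eng difference was not tested. Acvrl1 relative to Pecam1 and Cdh5 differed by -0.29, again with overlapping ranges (exact permutation p = 0.2, n = 3 each), and by -0.14 against all 12 markers (exact permutation p = 0.8). Leaving out EC-Jag1KO replicate 2 gave -0.50, leaving out EC-Jag1KO replicate 3 gave -0.16, and leaving out wild-type replicate 3 gave -0.47.

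**Figure D3:**
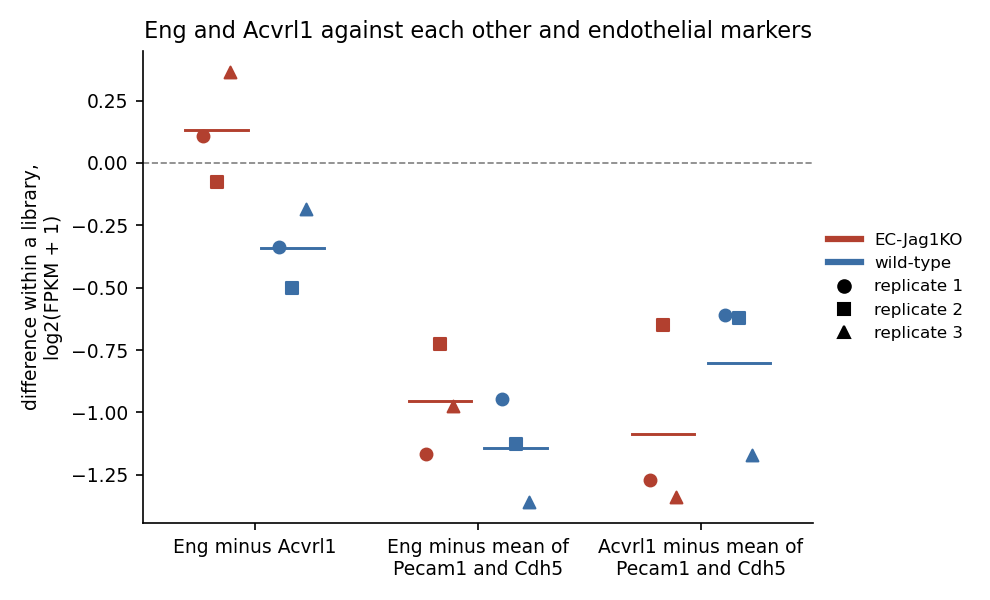
Differences in log2(FPKM + 1) within each library, for Eng minus Acvrl1 and for each of them minus the mean of Pecam1 and Cdh5, with EC-Jag1KO left in red and wild-type right in blue and lines at group means. The groups separate for Eng minus Acvrl1 and overlap for the ratios to the endothelial markers.

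None of the LTBP genes separated by genotype. Ltbp1 encodes a protein that covalently binds the latent TGF-beta complex, and lies on the plus strand of chromosome 17, 75005568 to 75392512. It measured 118, 127 and 135 FPKM in EC-Jag1KO libraries, against 137, 150 and 126 FPKM in wild-type libraries. The groups overlapped, with a difference of -0.12 and an interval of -0.37 to 0.14. Long and short Ltbp1 forms start from separate promoters and cannot be told apart in a value over the gene.

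Ltbp3 also carries latent TGF-beta, and lies on the plus strand of chromosome 19, 5740904 to 5758532. It measured 115, 128 and 127 FPKM in EC-Jag1KO libraries, against 121, 126 and 116 FPKM in wild-type libraries. Its difference of 0.03 had an interval of -0.20 to 0.26.

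Ltbp4, which binds latent TGF-beta weakly and is needed with fibulin-5 for elastic fibre assembly, lies on the minus strand of chromosome 7, 27305136 to 27337692. It measured 401, 444 and 419 FPKM in EC-Jag1KO libraries, against 455, 414 and 515 FPKM in wild-type libraries. The groups overlapped, and the highest value was that of wild-type replicate 3. The difference was -0.13 with an interval of -0.42 to 0.17.

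Ltbp2, a microfibril protein that does not bind latent TGF-beta, lies on the minus strand of chromosome 12, 84783212 to 84876532. It measured 13.0, 15.8 and 12.8 FPKM in EC-Jag1KO libraries, against 24.1, 14.8 and 11.1 FPKM in wild-type libraries. Wild-type replicate 1 stood apart from the other 5 libraries. The difference was -0.19 with an interval of -0.78 to 0.40, and it was 0.10 without wild-type replicate 1. Its coefficient of variation was 12.2% in EC-Jag1KO and 40.0% in wild-type, the widest spread of the 10 genes in wild-type.

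Within the LTBP pool no gene's share separated the genotypes. Ltbp4 took 62.0%, 62.1% and 60.3% of the summed LTBP FPKM in EC-Jag1KO and 61.8%, 58.8% and 67.0% in wild-type libraries, with overlapping ranges (exact permutation p = 0.9, n = 3 each). Ltbp1 took 17.8% to 19.5% in EC-Jag1KO and 16.4% to 21.3% in wild-type, and Ltbp2 took 1.85% to 2.21% and 1.45% to 3.27%. The Ltbp3 share was 18.0% ± 0.3 in EC-Jag1KO and 16.5% ± 1.3 in wild-type (exact permutation p = 0.2, n = 3 each). The summed LTBP level was 647, 716 and 694 FPKM in EC-Jag1KO and 736, 704 and 769 FPKM in wild-type libraries, which overlap (exact permutation p = 0.2). With 3 libraries a group these tests could not have gone below 0.1.

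**Figure D4:**
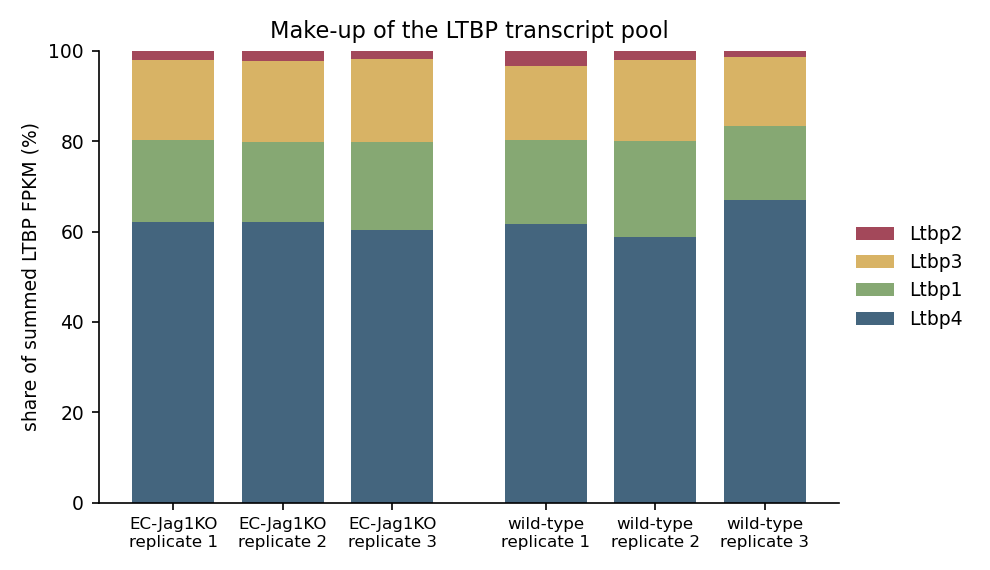
Share of each LTBP gene in the summed LTBP FPKM of a library (%), with the EC-Jag1KO libraries on the left and the wild-type libraries on the right. Ltbp4 takes between 58.8% and 67.0% in all 6 libraries.

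The other genes of the pathway were counted from lists of 91 symbols, all found in the table, of which 77 were tested. None passed over all genes, 35 were higher and 42 lower in EC-Jag1KO, and 4 were higher and 6 lower without overlap, 13.0% in all beside 13.6% of all tested genes. Their median difference was -0.02.

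Of 12 other receptors and co-receptors tested, 8 were higher and 4 lower, with a median of 0.11 and 0 passing. Rgma, a BMP co-receptor, stood at 15.6 ± 0.9 FPKM in EC-Jag1KO and 18.1 ± 0.1 FPKM in wild-type (adjusted p = 0.645 in limma). Acvr2a, a type II activin receptor, stood at 4.52 ± 1.33 and 3.23 ± 0.50 FPKM, with overlapping groups.

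Of 9 ligands tested, 4 were higher and 5 lower, with a median of -0.01 and 0 passing. Tgfb3 measured 51.9, 62.3 and 54.9 FPKM in EC-Jag1KO libraries, against 77.3, 67.0 and 64.9 FPKM in wild-type libraries, a difference of -0.30 without overlap (adjusted p = 0.607 in limma). Tgfb2, whose product depends on betaglycan, measured 27.5, 43.3 and 30.8 FPKM in EC-Jag1KO libraries, against 26.3, 29.6 and 19.5 FPKM in wild-type libraries, with overlap.

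Of 22 matrix proteins and activators of the latent complex tested, 12 were higher and 10 lower, with a median of 0.03 and 0 passing. Fbln5, the fibulin that works with LTBP4 in elastic fibres, measured 181, 190 and 226 FPKM in EC-Jag1KO libraries, against 107, 130 and 104 FPKM in wild-type libraries (adjusted p = 0.259 in limma). Itgb8, the beta chain of an integrin that activates latent TGF-beta, was low throughout, at 1.54 ± 0.44 FPKM in EC-Jag1KO and 0.672 ± 0.264 FPKM in wild-type, also without overlap.

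Of 12 antagonists tested, 3 were higher and 9 lower, with a median of -0.04 and 0 passing. Fst, the activin-binding protein follistatin, stood at 3.13 ± 0.24 FPKM in EC-Jag1KO and 2.23 ± 0.37 FPKM in wild-type without overlap.

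The 8 SMAD genes had 3 higher and 5 lower, with a median of -0.12 and 0 passing. Smad6, the inhibitory SMAD of the BMP branch, measured 18.5, 25.6 and 16.3 FPKM in EC-Jag1KO libraries, against 36.6, 39.3 and 15.6 FPKM in wild-type libraries. The male wild-type libraries were the high ones, and the groups overlapped. Smad9 stood at 3.88 ± 0.76 FPKM in EC-Jag1KO and 5.41 ± 2.08 FPKM in wild-type.

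Of 14 target genes 5 were higher and 9 lower, with a median of -0.15 and 0 passing. Tgfbi, a matrix gene named for its induction by TGF-beta, measured 101, 110 and 91.0 FPKM in EC-Jag1KO libraries, against 130, 174 and 150 FPKM in wild-type libraries (adjusted p = 0.402 in limma). Col1a1, the collagen I chain gene, stood at 297 ± 48 and 238 ± 18 FPKM, with overlap.

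**Figure D5:**
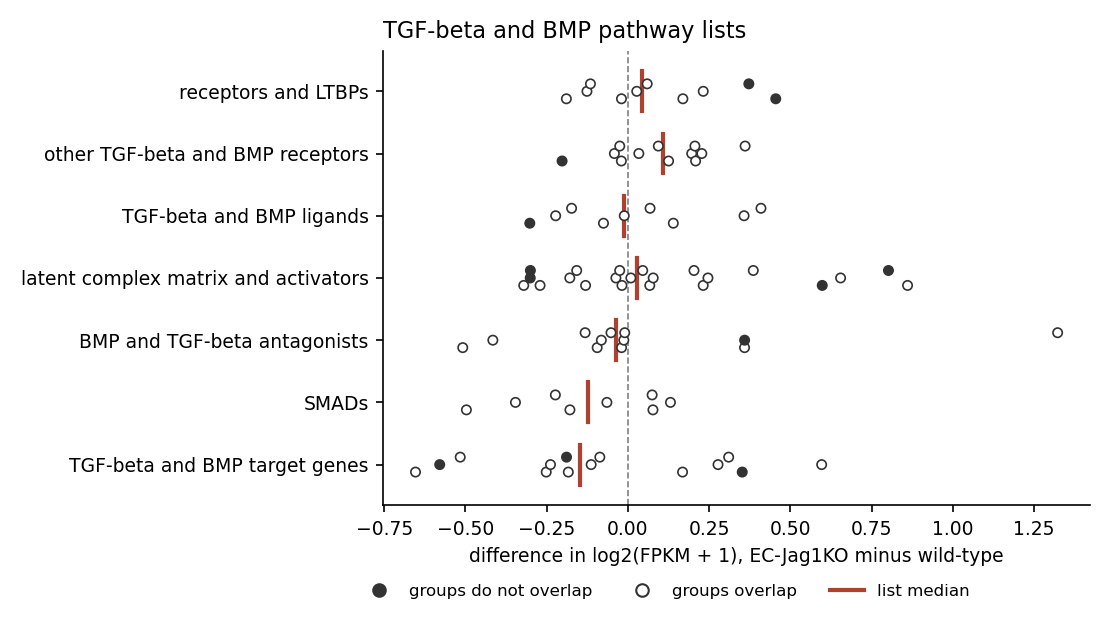
Difference in log2(FPKM + 1), EC-Jag1KO minus wild-type, of each tested gene of the receptors and LTBPs and of the 6 lists of other pathway genes, with filled points where the groups do not overlap and a red bar at the list median. The list medians lie between -0.15 and 0.11.

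Markers of smooth muscle and fibroblasts are given beside these values. The summed FPKM of 8 smooth muscle markers was 11808 to 14027 in EC-Jag1KO and 14204 to 14891 in wild-type, with 5 of 8 lower without overlap, beside 6.73% of all tested genes, among them Myh11 at 1257 ± 56 and 1474 ± 88 FPKM. The 8 fibroblast markers summed to 2364 to 2815 in EC-Jag1KO and 2241 to 2424 in wild-type, with 5 higher and 3 lower. Pdgfra stood at 19.5 ± 2.0 FPKM in EC-Jag1KO and 15.3 ± 0.5 FPKM in wild-type, and Dcn at 602 ± 53 and 663 ± 93 FPKM. Fbln1, chosen after its values were seen, had the largest difference of the list and lay the other way from Pdgfra, at 38.2 ± 5.2 FPKM in EC-Jag1KO and 69.9 ± 6.2 FPKM in wild-type. Both cell types are known to express LTBP genes, and the part of these markers in their values was not tested.

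The gene closest in pattern to each member was sought among all tested genes, as the smallest root mean square difference of mean-centred log2(FPKM + 1) over the 6 libraries. For Eng it was Tmem192 (0.050), for Tgfbr1 Ccdc88c (0.0452), for Tgfbr2 Polr2a (0.0305), for Tgfbr3 Mylip (0.0453) and for Acvrl1 Ppp5c (0.0170). For Bmpr2 it was Slc44a1 (0.0242), for Ltbp1 Sh3pxd2b (0.00698), for Ltbp2 Lrrc75b (0.0836), for Ltbp3 Atg13 (0.0256) and for Ltbp4 Trim65 (0.0276). None of the 10 closest genes was a member, and with 6 libraries and 12165 genes a close match is easily found.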

How the data were processed

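Whole-aorta RNA was isolated with spin columns, per the labels' protocols. The authors deposited FPKM values per gene for 6 libraries, with gene coordinates and lengths; the submitters' processing notes name STAR, HTSeq, edgeR and mm10, with no role or version, while annotation release and strand setting were not given in the sources used here. All values times gene length were within 0.05 of whole reads, which gave the depths.

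Differences and ratios of genes were taken on the log2(FPKM + 1) scale, except in the pseudocount and voom alternatives, so fold changes of low genes are understated. The LTBP shares and the sums over genes were taken on FPKM itself. The 12165 genes averaging 1 FPKM or more entered limma 3.58.1 (R 4.3.3), fitted on genotype alone with trended variance moderation, and two-sided p-values were adjusted by Benjamini-Hochberg, with a threshold of 0.05. Ratios and shares were tested by exact two-sided permutation in scipy 1.17.1. Plots used matplotlib 3.10.9. The fit was first tested on simulated data with known differences larger than those of the members. That test does not show how well differences of the members' size are found.

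The genes and lists were chosen with earlier results of these data known, and support nothing by their choice. All 163 listed symbols were matched. Named were the members, their overlapping and closest genes, Jag1, Xist, a few defining cell type markers and, in each pathway list, the 2 genes of smallest p; 2 genes that this rule names are not reported here. Alternatives covered pseudocount, filter, scaling, trend, weights, replicate number, sex, voom, threshold and libraries left out. Sequences are from RefSeq on GRCm38.p6, cut to the 250 bases before the start so that no base after a gene's own start is shown.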

Additional observations from a re-analysis of the deposited data

How the results depend on the processing

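Of 170 recomputed differences of the 10 genes, 160 kept their direction and their side of the threshold, 9 turned direction and 1, that of Eng with array weights (0.38), passed. The settings of threshold, filter, trend, replicate block and sex leave each estimate unchanged, so direction could not turn in them. The Tgfbr2 difference was -0.013 with array weights and -0.062 among male libraries. The Ltbp3 difference was -0.075 with array weights and -0.024 among male libraries, and that of Acvrl1 was 0.012 there. With each library left out, Tgfbr2 ranged from -0.11 to 0.17, Acvrl1 from -0.12 to 0.046, Ltbp2 from -0.43 to 0.096, Eng from 0.39 to 0.50, Tgfbr1 from 0.20 to 0.48, Tgfbr3 from 0.11 (without EC-Jag1KO replicate 3) to 0.36 (without wild-type replicate 3), Bmpr2 from 0.10 (without EC-Jag1KO replicate 3) to 0.23, Ltbp1 from -0.17 (without wild-type replicate 3) to -0.052 (without wild-type replicate 2; leaving out EC-Jag1KO replicate 1 gave -0.064), Ltbp3 from 4.8e-05 to 0.078 and Ltbp4 from -0.20 (without wild-type replicate 2) to -0.044 (without wild-type replicate 3). The shares, in percentage points, ranged from -1.41 to 1.02 for Ltbp1, -0.67 to 0.24 for Ltbp2, 0.87 (without wild-type replicate 3) to 2.22 for Ltbp3 and -2.90 to 1.20 for Ltbp4, and the summed LTBP difference from -67.3 to -31.8 FPKM (without EC-Jag1KO replicate 1). On recovered reads, not per length, the Ltbp3 share separated the groups (1.45 points, exact permutation p = 0.1). For all of these the cause was not tested.

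Array weights, whose estimation stopped before convergence, called 1647 genes and 1 of the 10, a term for sex called 1 gene and 0 of the 10, and the male libraries alone 2 genes and 0 of the 10. With each library left out, 0 to 4 genes passed, the 4 without EC-Jag1KO replicate 1, and 0 of the 10 did in each of these fits. The groups did not overlap in 4 of the 10 genes among male libraries, where 43.9% of all tested genes separated, and in 2 to 4 with each library left out, where 18.9% to 30.5% did. The count was 4 without EC-Jag1KO replicate 2 (30.5% of all), wild-type replicate 2 (19.7%) or wild-type replicate 3 (24%). Quantile and median-ratio scaling left it at 2.

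The replicate number entered as a block called 0 genes, with 842 at an unadjusted p under 0.05, and gave Eng an adjusted p of 0.526. Deviations of same-numbered libraries correlated at 0.055, 0.051 and -0.050, and no library correlated best with its own number. Same-numbered libraries also share sex by Xist, and the female pair gave the -0.050. These correlations therefore cannot show whether same-numbered libraries shared a batch. Each of the 10 genes had 1920 reads or more in every library; what more depth would change was not tested.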

Other observations

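Cell type lists beyond those of the vessel wall gave the following sums of FPKM. Adipocyte markers summed to 918 to 2196 in EC-Jag1KO and 418 to 2394 in wild-type, and brown fat markers to 216 to 366 and 40.5 to 516. Macrophage markers summed to 93.2 to 106.0 in EC-Jag1KO and 75.1 to 104.9 in wild-type, Schwann and nerve markers to 7.09 to 8.77 and 5.26 to 7.96, and lymphatic markers to 12.8 to 19.0 and 9.86 to 19.5. Most of the lymphatic sum was Lyve1, at 8.84 to 17.4 FPKM over the 6 libraries, which is also in the macrophage list. Prox1, of the lymphatic list alone, was at 0.179 FPKM or less. Blood markers summed to 169 to 834 in EC-Jag1KO and 645 to 1350 in wild-type, and skeletal and cardiac muscle markers to 8.49 to 15.7 and 4.44 to 8.72. Lymphocyte markers (0.313 to 1.21 and 0.852 to 1.31) and mesothelial markers (0.442 to 0.780 and 0.0620 to 0.198) were near 0. No marker of these lists was at 0 in all libraries, and their part in the values of the receptors and LTBPs was not tested.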
